A study of Danio rerio with 63 samples.

Results

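The genes described here encode subunits of the voltage-gated and related ion channels of excitable cells, namely the potassium, sodium and calcium channel genes whose symbols begin with kcn, scn or cacn. Of the 15418 genes of the count table, 100 carried such a symbol, and the 41 with at least 100 counts summed over the 63 libraries were taken as members. The rule used only the symbol and the summed count, not any difference between groups. The last gene inside the limit was scn12aa with 100 counts, and the first outside was kcnd1 with 95 counts, so the 59 remaining symbols were left out for low counts.

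Potassium channels bring the membrane back to rest after a spike and set the resting potential, sodium channels carry the rising phase of the action potential, and calcium channels admit the calcium that triggers transmitter release and gene regulation. Each pore-forming alpha subunit works with accessory subunits that set its surface level and gating. These include the KChIP proteins of A-type Kv4 channels, the beta subunits of Nav channels, and the beta and alpha2delta subunits of Cav channels. The gamma genes include the TARPs, which despite their name mainly carry AMPA-type glutamate receptors to the synapse in mammals. Many zebrafish channel genes exist as a duplicated pair, marked a and b.

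The libraries came from adult zebrafish of the wild-type (WT) AB strain and of a mutant line for brain aromatase. In this line TALENs made a short deletion in the second exon of cyp19a1b, the gene of the enzyme that turns androgens into estrogens in radial glia. The olfactory bulbs (OB), the hypothalamus and the telencephalon (Tel) were each measured in 5 pools of mutant males, 6 pools of WT males, 4 pools of mutant females and 6 pools of WT females, every pool holding 3 fish of 1 sex and genotype. The labels give the fish as adults, name no other allele or treatment, and the p-values measure the spread between such pools. Values are given as CPM, the count of unique molecules of a gene brought to a common library total after TMM scaling, a correction for differences in composition.

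Library totals lay between 21444 and 1033008 counts, and the medians of the mutant groups were lower than those of the WT groups of the same sex in every region. On plain library totals, before TMM scaling, 3 counts stood for 139.9 CPM in the shallowest library and for 2.90 CPM in the deepest. The libraries labelled OB did not carry the usual neuronal profile: 12 neuronal markers summed to 546 to 1673 CPM there (median 1107), against 8973 to 20006 CPM in the hypothalamus (median 12628) and 7764 to 11586 CPM in the Tel (median 8888). Some genes are named here after their values were seen. The epithelial gene epcam had a median of 2239 CPM in the OB, against 14.4 CPM in the hypothalamus and 20.1 CPM in the Tel, whereas gad1b, which makes the transmitter GABA, had a median of 14.8 CPM, against 576 and 359 CPM. The mitral cell gene tbx21 had a median of 0 in the OB, the hypothalamus and the Tel alike, and so does not set the OB apart. The 9 olfactory sensory neuron markers summed to a median of 2414 CPM in the OB, 64.5 CPM in the hypothalamus and 70.5 CPM in the Tel. The OB libraries are therefore named by their label only. They also entered the fit from which the hypothalamus and the Tel were compared, and that comparison is given without them as well. In 1 Tel library of WT males, pool A1, the keratin gene krt5 stood at 7799 CPM, against a median of 27.1 CPM over the Tel libraries.

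The channel genes were a small part of the transcriptome and were unevenly counted. Together the members had 27391 counts, or a median of 0.0364% of the counts of an OB library, 0.170% of a hypothalamic library and 0.151% of a Tel library. Over all libraries, which differ in depth, the auxiliary subunits led the list. The Nav beta genes held 24.04% of all channel counts over 5 members, the gamma and TARP genes 21.7% over 5 members and the Kv accessory genes 15.7% over 4 members. By contrast, 6 Kv alpha genes held 7.72%, 6 Nav alpha genes 7.69% and 3 Cav alpha1 genes 2.31%. The order was another in the OB of WT fish, where the median summed levels of the Kir gene (102 CPM), the Nav alpha genes (90.6 CPM), the calcium-activated K genes (59.6 CPM) and the Kv alpha genes (59.1 CPM) stood above those of the Nav beta (35.4 CPM), gamma and TARP (25.0 CPM) and Kv accessory genes (20.5 CPM). Since the method counts 3′ ends, these shares were not corrected for length and depend on how well each 3′ end was annotated. The most counted members were scn2b with 5472 counts, kcnip1b with 3228, cacng8a with 3057, cacng2b with 1844 and kcnma1a with 1501.

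**Figure D1:**
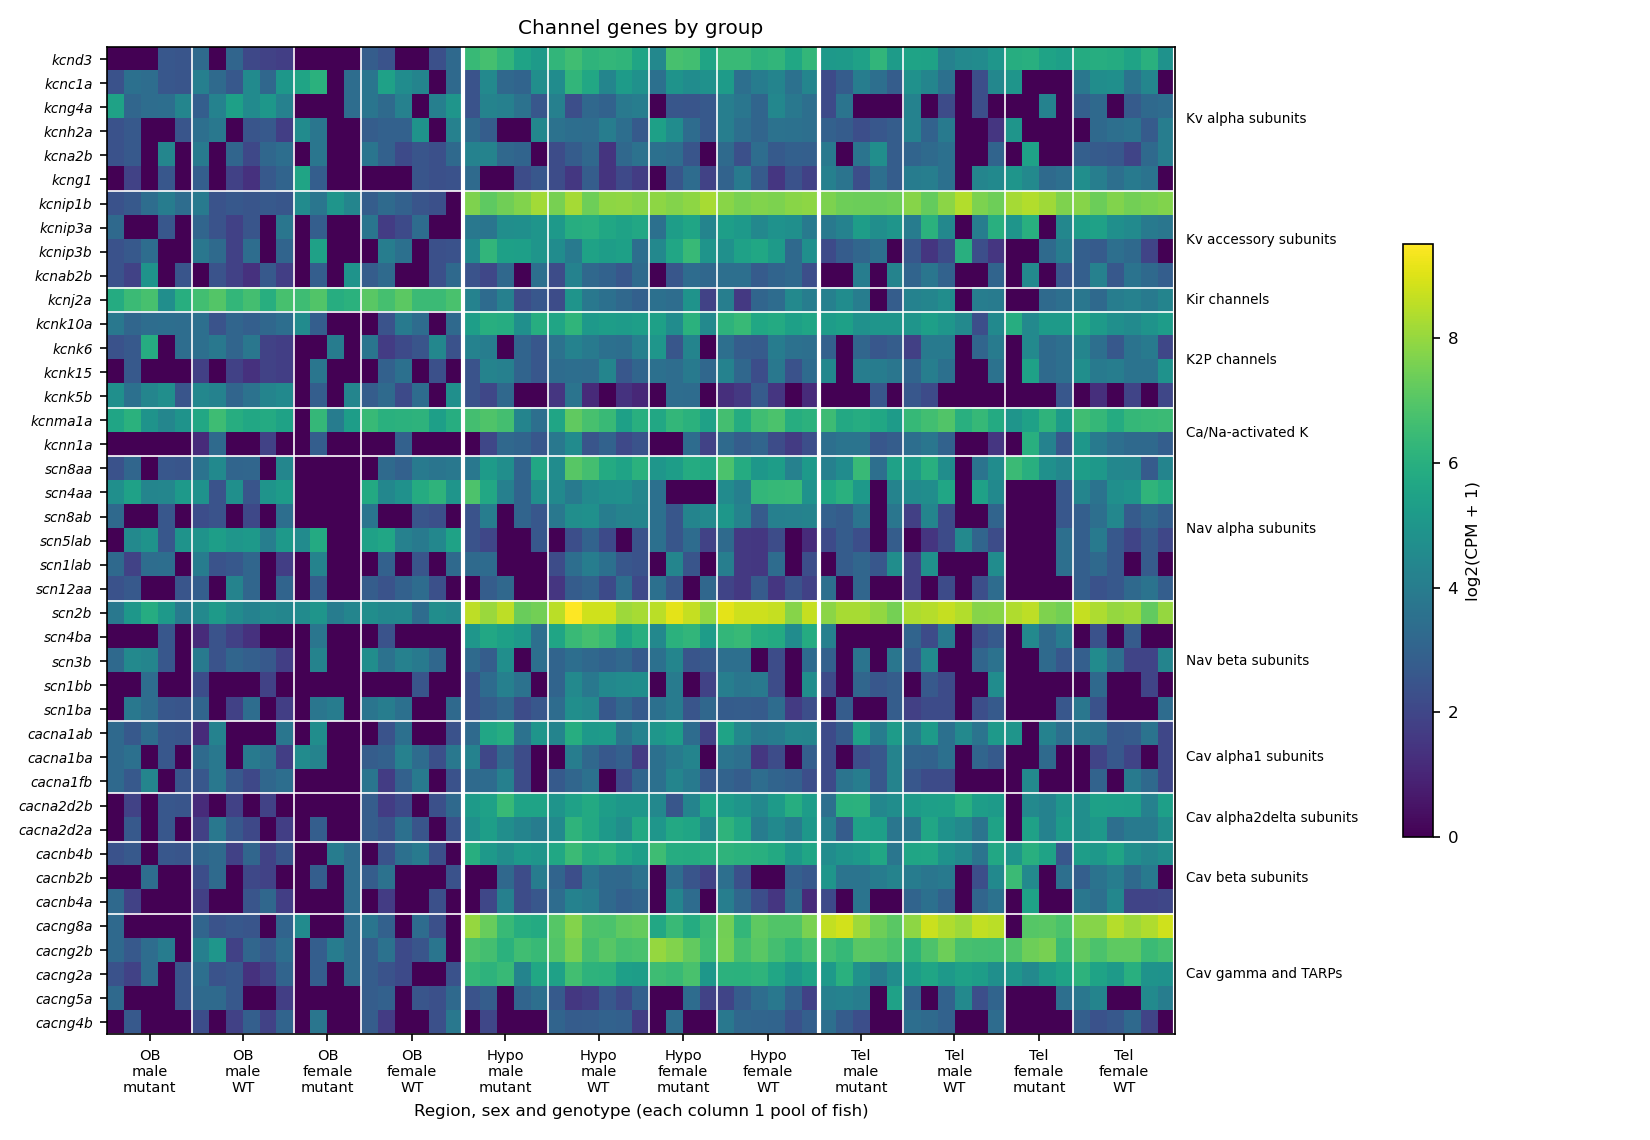
Level of the 41 channel genes, in rows by class, as log2(CPM + 1) in each pool (1 column a pool), with the groups of the OB, the hypothalamus (Hypo) and the Tel side by side and mutant pools left of WT pools of the same sex. Yellow is high and dark blue is 0; most members are darkest in the OB columns, whereas kcnj2a is brightest there, with WT pools of 61.2 to 137 CPM.

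The comparison of the 3 regions within WT fish asked in which region's libraries, as labelled, each channel gene was higher or lower. Pools with the same sex, genotype and code were treated as the same fish, with the pool as a block. Channel genes were lower in the OB as a group. The summed level of the 41 members had a median of 485 CPM over 12 WT pools in the OB, against 1673 CPM in the hypothalamus and 1507 CPM in the Tel. The OB range of 343 to 561 CPM did not reach either the hypothalamic range of 1261 to 2766 CPM or the Tel range of 1302 to 1856 CPM. In such tissue samples, fewer cells of a type and less RNA per cell cannot be told apart, and the share of the neuronal markers' low OB level in these differences was not tested.

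A gene was called where edgeR's quasi-likelihood test gave a Benjamini-Hochberg adjusted p at or below 0.05 and the levels differed by 1.5-fold or more. By this rule 15 of the 21 members tested were lower in the OB than in the Tel, whereas 29.0% of all genes tested were called in that direction. Only kcnj2a and scn5lab were higher in the OB than in the Tel, 2 of 21, against 29.8% of all genes. Against the hypothalamus, 17 of 21 members were lower in the OB (31.3% of all genes) and the same 2 genes were higher (29.3% of all genes). The median change of the tested members was −1.99 between the OB and the Tel on the log2 scale and −3.13 between the OB and the hypothalamus, against −0.06 and −0.07 over all genes tested. A member could pass the filter on low counts through its hypothalamic or Tel libraries alone. Filtered by region, 2 members passed in the OB, 20 in the hypothalamus and 12 in the Tel. The tested set can therefore lean to genes low in the OB. Over all 41 members, 7 had no WT OB pool within reach of any Tel pool and lay below it (7.15% of the 9844 genes with at least 100 counts), and 1 lay above it (11.2%). Between the OB and the hypothalamus 12 members lay below without overlap (10.3%), and 2 above (12.9%).

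**Figure D2:**
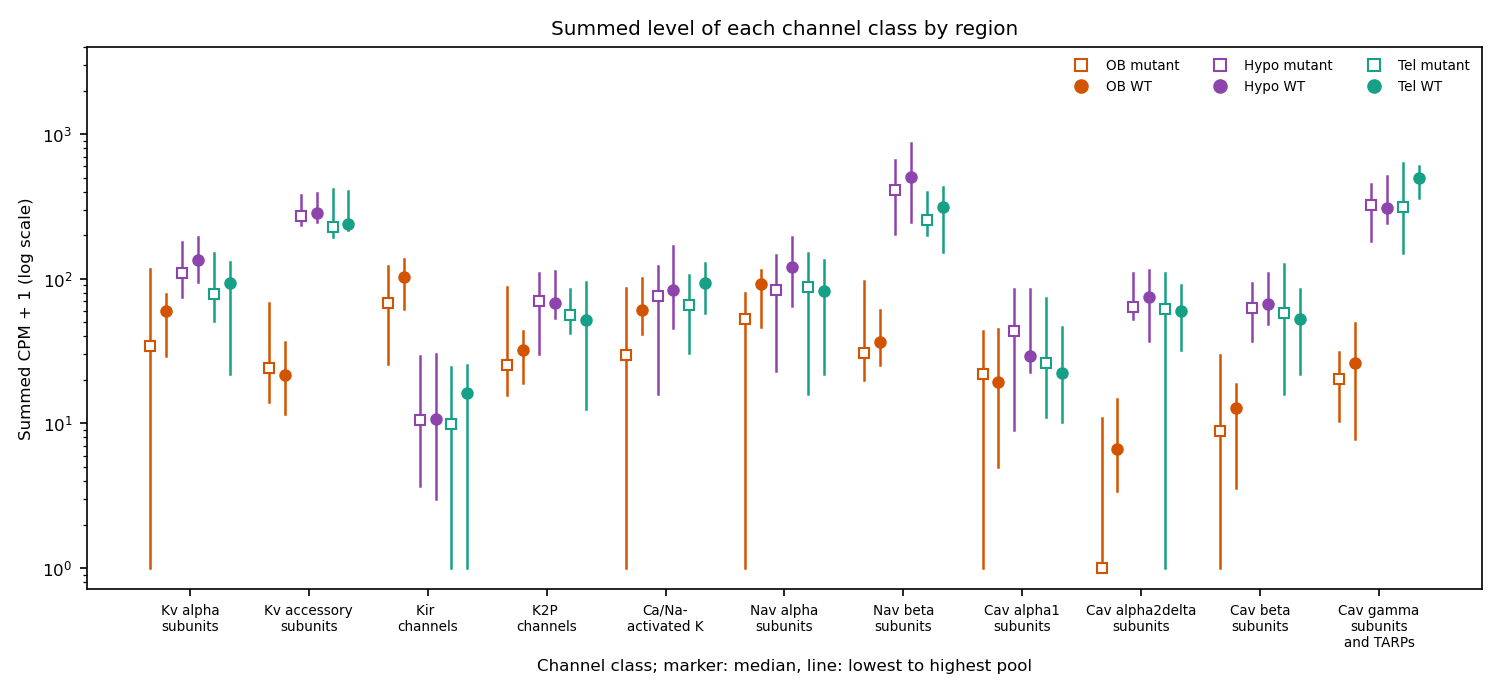
Summed CPM + 1 of each channel class on a log axis, as the median (marker) and the lowest to the highest pool (line), with the OB, the hypothalamus (Hypo) and the Tel side by side and mutant pools (open squares) left of WT pools (filled circles). The Kir class, made up of kcnj2a alone, is highest in the OB, with WT pools of 61.2 to 137 CPM, whereas the Kv accessory, Nav beta and gamma classes are lowest there.

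Among the Kv alpha genes, kcnd3, the Kv4.3 channel of the transient A-type current, had a median of 3.59 CPM in the OB (0 to 8.76), 75.4 CPM in the hypothalamus (47.0 to 94.99) and 44.2 CPM in the Tel (17.3 to 65.0) of WT fish. The OB pools lay below all others, and the gene was lower in the OB than in the Tel (log2 change −3.21 ± 0.29 SE, adjusted p = 3.11e-13). It was also higher in the hypothalamus than in the Tel (0.82 ± 0.17, adjusted p = 0.000143), where the pools overlapped. The fast-spiking Kv3.1 gene kcnc1a, by contrast, had medians of 14.1, 21.5 and 15.9 CPM in the OB, the hypothalamus and the Tel, with overlapping pools. Its OB level was called lower than that of the hypothalamus (−0.76 ± 0.32, adjusted p = 0.0291) but did not pass the test against the Tel (0.11 ± 0.38, adjusted p = 0.816).

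The Kv4 partner kcnip1b was among the most regional members. Its WT pools had 0 to 13.8 CPM in the OB (median 5.00), 171 to 299 CPM in the hypothalamus (median 221) and 154 to 338 CPM in the Tel (median 204). The OB pools were apart from both, with a log2 change of −4.90 ± 0.19 against the Tel (adjusted p = 7.35e-26) and −5.05 ± 0.18 against the hypothalamus (adjusted p = 2.56e-27). The hypothalamus and the Tel did not differ beyond their spread for this gene (0.16, 95% interval −0.05 to 0.36). The KChIP3 pair behaved differently between these brain regions. For kcnip3b the hypothalamus had 8.61 to 49.1 CPM (median 30.5) and the Tel 0 to 63.3 CPM (median 4.41), a called difference of 2.48 ± 0.35 (adjusted p = 1.53e-07), although the ranges overlapped. For its duplicate kcnip3a the same difference was 0.36, with a 95% interval of −0.05 to 0.77, and did not pass the test.

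The inward rectifier kcnj2a, a Kir2.1 channel that holds the resting potential near that of potassium, showed the opposite regional order. WT pools had 61.2 to 137 CPM in the OB (median 102), 2.02 to 29.1 CPM in the hypothalamus (median 9.76) and 0 to 24.3 CPM in the Tel (median 15.3). No OB pool overlapped with either region, and the change was 2.66 ± 0.20 against the Tel (adjusted p = 1.22e-15) and 3.06 ± 0.18 against the hypothalamus (adjusted p = 3.29e-19). The other member with this order was scn5lab, a relative of the mammalian cardiac channel Nav1.5, with 14.1 to 48.8 CPM in the OB (median 32.0), 0 to 8.69 CPM in the hypothalamus (median 2.73) and 0 to 21.1 CPM in the Tel (median 4.39). Its change was 2.48 ± 0.34 against the Tel and 3.11 ± 0.31 against the hypothalamus (adjusted p = 1.22e-08 and 3.81e-12), and its OB pools were clear of the hypothalamic but not of the Tel pools.

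Of the leak-type K2P genes, kcnk10a (TREK-2, opened by stretch and lipids) had medians of 7.83 CPM in the OB, 47.4 CPM in the hypothalamus and 29.1 CPM in the Tel of WT fish. It was called in all 3 comparisons, with the hypothalamus above the Tel by 0.83 ± 0.18 (adjusted p = 0.00036). The second gene of the class, kcnk6 (TWIK-2), was counted too thinly to be tested and had medians of 6.19, 10.5 and 10.6 CPM in the OB, the hypothalamus and the Tel, with pools that overlapped throughout. The large-conductance calcium-activated channel gene kcnma1a had medians of 59.6 CPM in the OB, 76.8 CPM in the hypothalamus and 81.4 CPM in the Tel. It was lower in the OB than in the Tel by less than 1.5-fold (−0.49 ± 0.15, adjusted p = 0.00269), and the hypothalamus and the Tel differed by −0.05 (95% interval −0.30 to 0.21). The small-conductance channel gene kcnn1a was not tested and had medians of 0, 5.41 and 8.48 CPM in the OB, the hypothalamus and the Tel.

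The sodium channel genes held the clearest difference between the hypothalamus and the Tel. The beta subunit gene scn4ba, whose mammalian counterpart shapes the resurgent sodium current of fast-firing neurons, had 0 to 4.43 CPM in the OB (median 0), 23.7 to 102 CPM in the hypothalamus (median 60.8) and 0 to 13.9 CPM in the Tel (median 3.67). The hypothalamic pools lay above every other pool, with a change of 3.88 ± 0.25 against the Tel (adjusted p = 8.38e-17). It was the only member whose WT hypothalamic and Tel pools did not overlap in this direction (1.64% of all genes). Its relative scn2b, the member with the most counts, had 9.39 to 35.0 CPM in the OB (median 21.3), 222 to 727 CPM in the hypothalamus (median 420) and 147 to 409 CPM in the Tel (median 298). It was lower in the OB than in the Tel by 3.80 ± 0.13 on the log2 scale (adjusted p = 2.01e-27), and the hypothalamus exceeded the Tel by 0.53 ± 0.09, short of 1.5-fold. The beta1 gene scn1bb was low everywhere, with a median of 0 in the OB, 14.6 CPM in the hypothalamus and 0 in the Tel, and was called higher in the hypothalamus than in the Tel (1.54 ± 0.42, adjusted p = 0.00416).

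Of the sodium channel pores, scn8aa (Nav1.6, the channel of the axon initial segment in mammals) had medians of 10.1 CPM in the OB, 49.9 CPM in the hypothalamus and 22.1 CPM in the Tel, with a hypothalamus-to-Tel change of 1.16 ± 0.21 (adjusted p = 2.72e-05). The gene scn4aa, whose mammalian counterpart Nav1.4 is the sodium channel of skeletal muscle, was spread evenly over the regions of WT fish, with medians of 28.4 CPM in the OB, 24.5 CPM in the hypothalamus and 25.0 CPM in the Tel. Its differences were −0.11 between the OB and the Tel (95% interval −0.62 to 0.41), −0.20 between the OB and the hypothalamus (−0.66 to 0.27) and 0.09 between the hypothalamus and the Tel (−0.38 to 0.55).

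Among the calcium channel genes, cacng8a stood apart by its Tel level. The gamma-8 TARP is a forebrain partner of AMPA receptors in mammals, and WT pools had 0 to 12.03 CPM in the OB (median 4.94), 76.9 to 215 CPM in the hypothalamus (median 135) and 219 to 453 CPM in the Tel (median 329). The 3 ranges did not overlap. The changes were −5.87 ± 0.20 between the OB and the Tel (adjusted p = 2.58e-28) and −1.19 ± 0.11 between the hypothalamus and the Tel (adjusted p = 3.94e-12). It was the only member called lower in the hypothalamus than in the Tel, 1 of 21 against 5.98% of all genes, and the only one without overlap in that direction (0.742% of all genes). The stargazin gene cacng2b, another TARP, had medians of 6.97 CPM in the OB, 107 CPM in the hypothalamus and 108 CPM in the Tel. Its hypothalamus-to-Tel difference was 0.07 (95% interval −0.21 to 0.34).

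The subunits that bring Cav channels to the membrane followed the general order. The alpha2delta genes cacna2d2b and cacna2d2a had OB medians of 2.39 and 4.37 CPM, hypothalamic medians of 35.97 and 33.1 CPM and Tel medians of 39.7 and 22.8 CPM. Of this pair, cacna2d2a was called higher in the hypothalamus than in the Tel (0.64 ± 0.18, adjusted p = 0.00625), whereas cacna2d2b had a change of 0.02 ± 0.19. The beta subunit gene cacnb4b had medians of 4.66, 55.8 and 30.3 CPM in the OB, the hypothalamus and the Tel and was called in all 3 comparisons. The P/Q-type pore gene cacna1ab was likewise lower in the OB than in the Tel (−1.97 ± 0.44, adjusted p = 0.000116) and higher in the hypothalamus than in the Tel (0.78 ± 0.29, adjusted p = 0.0426). The N-type pore gene cacna1ba and the beta subunit gene cacnb2b, which were not tested, had medians of 2.91 to 11.8 CPM over the 3 regions with pools that overlapped.

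Between the hypothalamus and the Tel, 10 of 21 members were higher in the hypothalamus of WT fish, against 9.72% of all genes, with a median change of 0.53 over the members and 0.02 over all genes. Over all pools the neuronal markers had a median sum of 12628 CPM in the hypothalamus and 8888 CPM in the Tel, and 8 oligodendrocyte markers 3567 CPM in the hypothalamus and 413 CPM in the Tel. The part of these markers in the regional difference was not tested. These 10 were kcnd3, kcnc1a, kcnip3b, kcnk10a, scn8aa, scn4ba, scn1bb, cacna1ab, cacna2d2a and cacnb4b, and the changes ran from 0.64 for cacna2d2a to 3.88 for scn4ba. The kcnc1a call (0.86 ± 0.33, adjusted p = 0.0468) was lost without any 1 of 7 of the 12 WT pools, where its change lay between 0.67 and 1.02 over all 12. This call was also lost with DESeq2 (adjusted p = 0.0531) and with limma-voom taking the pool as a random effect (0.0753). By edgeR it was lost without the libraries of low total (0.0605) and without the pool as a block (0.106). With the OB libraries left out of the fit, 10 of 19 members tested were higher in the hypothalamus and 1 was lower. The share of all genes called in that fit is not given here, so these counts have no background beside them. A member could pass the filter on low counts through its hypothalamic libraries alone. Filtered by region, 20 members passed in the hypothalamus and 12 in the Tel, so the tested set can lean to genes high in the hypothalamus. Over all 41 members, 1 had hypothalamic pools above the Tel without overlap (1.64% of the 9844 genes with at least 100 counts) and 1 below (0.742%).

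**Figure D3:**
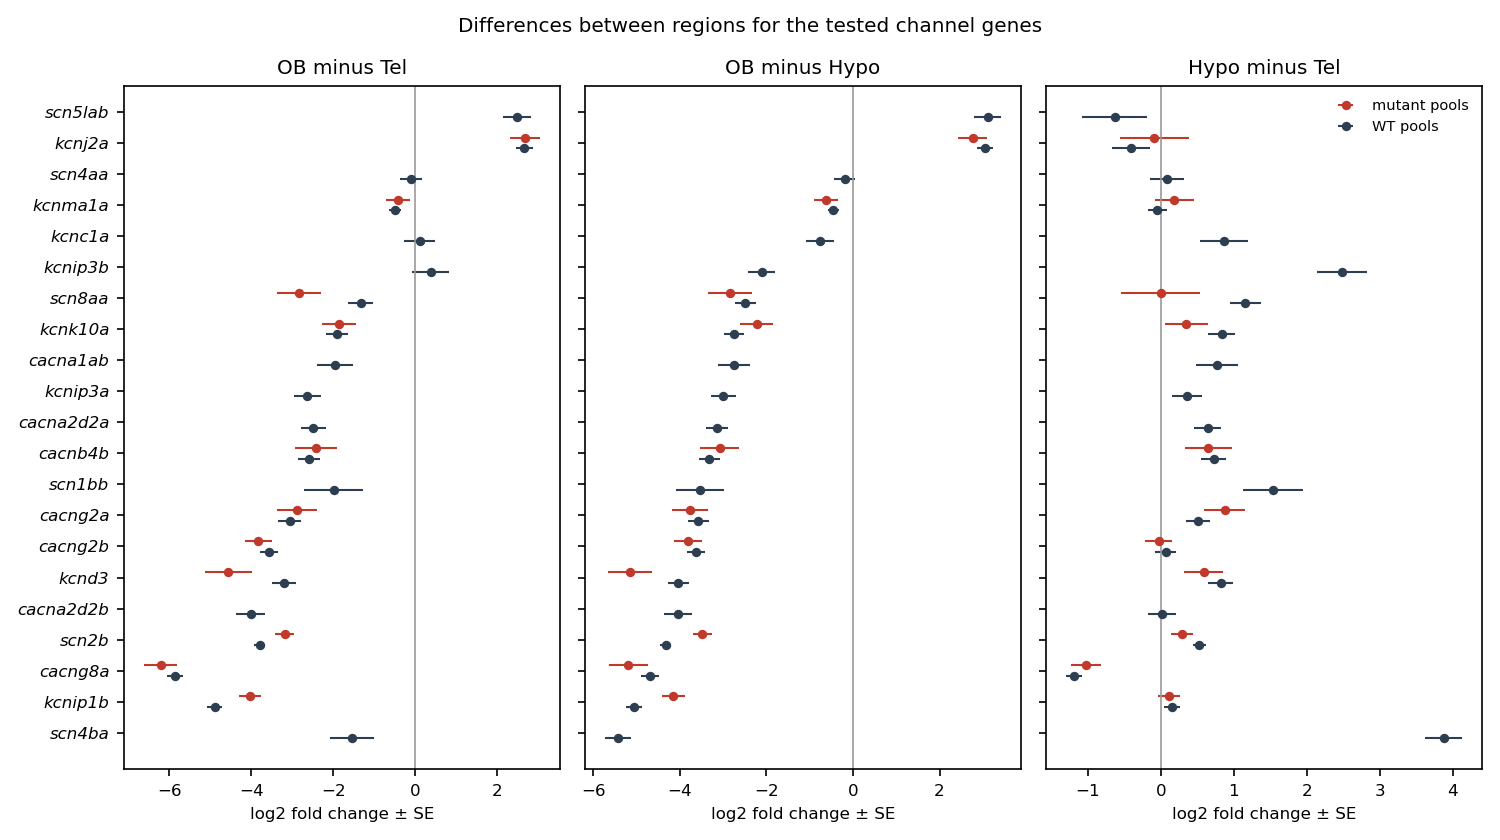
Change of each tested channel gene between regions on the log2 scale, for the OB against the Tel, the OB against the hypothalamus and the hypothalamus against the Tel, with mutant (red) and WT fish (dark) as separate points and bars of ± 1 SE. Of the 21 members in WT fish 17 lie left of 0 for the OB against the Tel, and kcnj2a and scn5lab lie farthest to the right.

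The aromatase mutants, which the WT fit does not use, repeated the low OB level of most tested members. Among the calls between the hypothalamus and the Tel that could be tested in mutants, only that of cacng8a was repeated. In mutants 11 members could be tested. Of these, 10 were called between the OB and the Tel, against 59.7% of all genes in either direction, and 11 between the OB and the hypothalamus (60.7% of all genes). In the OB 9 were lower and 1 higher than in the Tel, and 10 lower and 1 higher than in the hypothalamus. Shares of all genes by direction were not computed, and the limit of the filter given for WT fish holds here too. The kcnj2a level of the mutant pools had a median of 67.0 CPM in the OB, 9.58 CPM in the hypothalamus and 8.85 CPM in the Tel, a change of 2.67 ± 0.37 between the OB and the Tel (adjusted p = 6.61e-09). For kcnip1b the mutant medians were 12.2, 211 and 198 CPM in the OB, the hypothalamus and the Tel. The WT order of cacng8a was kept, with a change of −1.03 ± 0.20 between the hypothalamus and the Tel (adjusted p = 0.000112), but 1 mutant Tel pool had no count of it and the pools overlapped. Only 2 of 11 members were called between the hypothalamus and the Tel in mutants (12.4% of all genes), cacng8a and cacng2a, and cacng2a is named after its values were seen. In WT fish cacng2a was not called in this comparison. Of the genes called higher in the WT hypothalamus, kcnd3, kcnk10a, scn8aa and cacnb4b were tested in mutants. Their changes there were 0.59, 0.35, −0.0003 and 0.65, and none was called. The others called higher, kcnc1a, kcnip3b, scn4ba, scn1bb, cacna1ab and cacna2d2a, were not tested in mutants. Each had a higher mutant median in the hypothalamus than in the Tel. Pools overlapped for all but kcnip3b, with 20.6 to 84.4 CPM in the hypothalamus and 0 to 15.1 CPM in the Tel. It was 1 of 41 members without overlap in this direction (1.18% of the 9844 genes with at least 100 counts). The region with the highest median was the same in mutant and WT pools for 31 of the 41 members. The share over all genes was not computed, and medians at or near 0 make the highest region uncertain for thinly counted members. For cacng4b, named after its values were seen, the mutant median was 0 in every region and the tie was scored as the OB.

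The next comparison asked which channel genes differed between mutant and WT fish of the same sex. In females 1 of 20 tested members was called in the hypothalamus (3.56% of all genes), 1 of 12 in the Tel (2.46% of all genes), and 0 of 2 in OB libraries (2.50%). In males 1 of 20 was called in the hypothalamus (1.93%), 0 of 12 in the Tel (0.0225% of all genes), and 0 of 2 in OB libraries (0.0221%). Of the 41 members, the filter on low counts left 21 untested in the hypothalamus, 29 in the Tel and 39 in the OB. None of the counts was more than 1 gene. The 3 called genes were scn4aa, cacng8a and kcnip3a, and all were lower in mutants.

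In the hypothalamus scn4aa was nearly absent from mutant females. Their pools A1, A2, B1 and C1 had 10.3, 0, 0 and 0 CPM, against 16.2 to 83.9 CPM in 6 WT female pools (median 52.7). The groups did not overlap, and the change was −5.13 ± 1.104 on the log2 scale (adjusted p = 0.00501). In counts, mutant females had 1 in all and WT females 170, a ratio of 0.0263 with a 95% counting interval of 0.000662 to 0.149, whereas 38.0 counts would stand at the WT level for the mutant totals. The interval covers counting error only.

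Mutant males did not show this loss. Their hypothalamic pools A1, B1, B2, C1 and C2 had 114, 51.5, 16.7, 7.37 and 24.9 CPM of scn4aa, against 13.6 to 26.5 CPM in WT males (median 22.3). The groups overlapped, with 2 mutant pools above and 1 below all WT pools (1.05 ± 0.50, adjusted p = 0.327). The change differed between the sexes: the change in males minus that in females was 6.18 ± 1.23 (adjusted p = 0.00488), 1 of 20 members called where 2.04% of all genes were. Mutant males were also higher than mutant females for this gene (4.98 ± 1.19, adjusted p = 0.0164), 1 of 20 against 2.38% of all genes, a call lost without mutant female pool A2, B1 or C1 or without mutant male pool A1 (adjusted p of 0.0727 to 0.0935). In WT fish the difference between males and females was −1.20 ± 0.41 and did not pass the test (adjusted p = 1.00).

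The same pattern of pools was seen outside the hypothalamus, where the gene was counted more thinly. In the Tel the 4 mutant female pools had 0, 0, 0 and 5.03 CPM of scn4aa, against 11.4 to 73.5 CPM in WT females (median 26.9), and did not overlap with them. The change of −3.58 ± 1.24 did not pass the test (adjusted p = 0.146) but did with no filter on low counts (−3.75, adjusted p = 0.0248), and the counts of 1 and 71 gave a ratio of 0.0864 (95% counting interval 0.00216 to 0.497). Mutant males had 50.4, 64.7, 34.8, 0 and 18.2 CPM in the Tel, against 0 to 48.5 CPM in WT males (median 23.4), with overlap.

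In the OB the filter on low counts left scn4aa out of the test. Mutant female pools all had 0 CPM there, against 20.0 to 72.4 CPM in WT females (median 42.1), so that the pools did not overlap. An exact two-sided permutation test on log2(CPM + 1) gave p = 0.00952 without adjustment, the smallest that 4 against 6 pools can give. The same test was run on all 39 members left untested in the OB, and 6 of them had p of 0.05 or less, against 9.52% of all untested genes with at least 100 counts. In the Tel 4 of 29 did (13.8%), and in the hypothalamus 1 of 21 (11%). The smallest p was also reached by kcnip1b in the OB, by scn8ab and scn12aa in the Tel and by kcng4a in the hypothalamus, the last 3 named after their values were seen. Of these kcnip1b was higher in mutant females, with 23.1, 12.2, 29.7 and 19.1 CPM against 0 to 8.87 CPM in WT females (median 5.36), and the others were lower, all without overlap in CPM. The kcnip1b values were 1, 2, 2 and 2 counts, against 0 to 4 counts in WT females, so the counts themselves overlapped. In the Tel, mutant females had 0, 0, 0 and 1 counts of scn8ab, against 1 to 7 in WT females, which also overlapped. For scn12aa they had 0 counts in every library, against 1 to 4 in the deeper WT libraries. The kcng4a counts in the hypothalamus were 0 to 2 in mutant and 4 to 11 in WT females. In OB mutant female pool A1, 1 count already made 23.1 CPM, and the part of library depth was not tested for any of these genes. For scn4aa in the OB, with no filter the adjusted p was 0.00176, and 0.124 without the 7 libraries of low total. With 3 counts over the group set as a floor, the level would be 4.39-fold lower in mutant than in WT females. The observed counts of 0 in mutant and 63 in WT females gave a ratio with an exact counting interval of 0 to 0.288. The upper end of this interval allows a smaller drop than the floor gives. Mutant males had 25.9, 42.1, 19.2, 19.7 and 33.1 CPM in the OB, against 4.38 to 36.6 CPM in WT males (median 26.6). Another sodium channel pore, scn8aa, was counted in all 4 Tel libraries of mutant females, with 89.2, 62.9, 26.5 and 20.1 CPM against 5.65 to 37.8 CPM in WT females (median 20.1), and had 0 counts in all 4 of their OB libraries, against 15 counts over the 6 WT female libraries. The 3 regions of a pool come from the same fish if the codes mean the same pool, so they are not independent repeats.

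Markers of other cells moved with these groups in part. The 28 skeletal muscle markers, a list without scn4aa, summed to 134 to 216 CPM in the hypothalamus of mutant females (23 of 28 with counts) and 179 to 329 CPM in WT females (28 of 28 with counts). In the Tel the sums were 97.3 to 461 CPM in mutant and 120 to 194 CPM in WT females, and in the OB 185 to 564 CPM in mutant and 176 to 270 CPM in WT females, and the medians of mutants were higher in both regions. The 12 radial glia markers summed to a median of 10971 CPM in the hypothalamus of mutant females and 24414 CPM in WT females. In the OB the medians were 2960 CPM in mutant and 13427 CPM in WT females, and in the Tel 13894 and 24126 CPM. By edgeR, glula alone of the list was called in mutant against WT females, in the hypothalamus (−1.46) and the OB (−1.96). In the Tel its change of −1.05 did not pass the test (adjusted p = 0.0886). The other tested members had changes of both signs in the hypothalamus and the Tel and only positive changes in the OB. The 12 neuronal markers in the hypothalamus summed to 8973 to 12306 CPM in mutant and 11641 to 15884 CPM in WT females. The part of these markers in the scn4aa result was not tested.

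**Figure D4:**
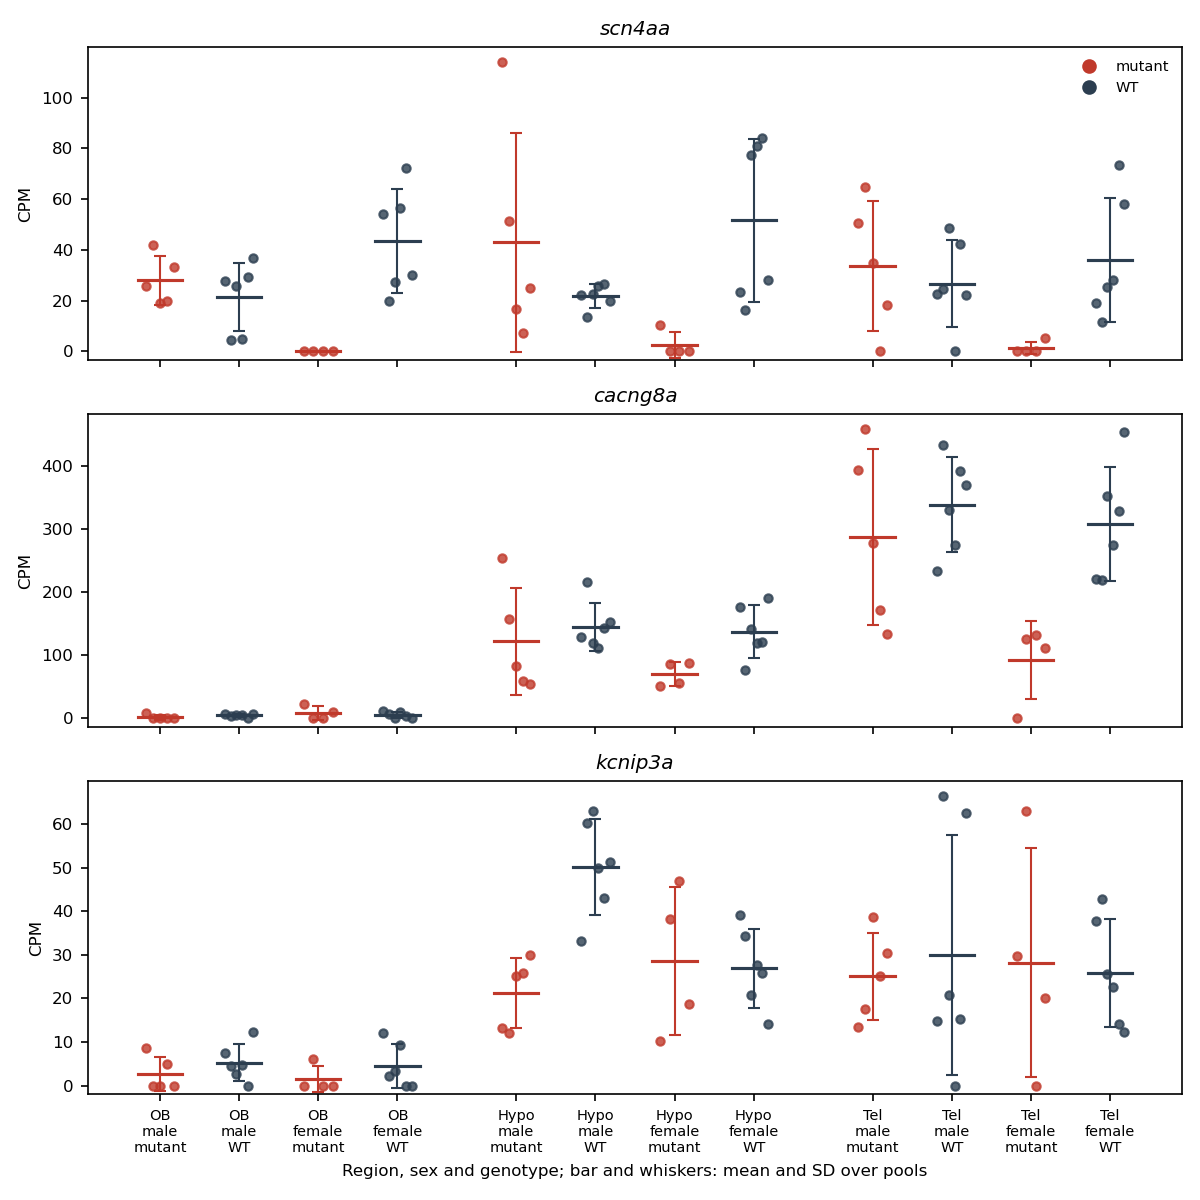
CPM of scn4aa, cacng8a and kcnip3a in every pool, by region, sex and genotype, with 1 point a pool, mutant pools left of WT pools, a bar at the group mean and whiskers of 1 SD. For scn4aa the 12 libraries of mutant females, 4 pools in each of the 3 regions, lie at or near 0, with a highest value of 10.3 CPM.

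The Tel-rich gene cacng8a was lower in the Tel of mutant females. Their pools A1, A2, B1 and C1 had 0, 126, 133 and 111 CPM, against 219 to 453 CPM in WT females (median 301). All mutant pools lay below all WT pools, and the change was −1.49 ± 0.38 (adjusted p = 0.0321). Pool A1 was the library with 21444 counts, in which 3 counts, as of scn8aa, made 89.2 CPM after TMM scaling. Without it the change was −1.32 (adjusted p = 0.0778), and the call was also lost without any 1 of the other 3 mutant female pools or of WT female pools B1, C1 and C2 (adjusted p of 0.0520 to 0.111).

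In the hypothalamus mutant females had 51.5, 86.2, 56.3 and 88.2 CPM of cacng8a, against 76.9 to 190 CPM in WT females (median 131), with overlap (−0.87 ± 0.36, adjusted p = 0.267). In the Tel of males the mutant pools had 393, 459, 278, 171 and 133 CPM, against 234 to 433 CPM in WT males (median 349). These groups overlapped, and the change was −0.23 (95% interval −0.79 to 0.32). The difference between the changes in males and females was 1.25 ± 0.48 and did not pass the test (adjusted p = 0.341), in a comparison where 0 of 12 members and 0.496% of all genes were called. The neuronal markers in the Tel of mutant females summed to 7764 to 8388 CPM, against 8362 to 11586 CPM in WT females, and their part was not tested.

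In the hypothalamus of males the called gene was kcnip3a. KChIP3 binds Kv4 channels and is also known in mammals as a calcium-dependent repressor of transcription. Mutant pools A1, B1, B2, C1 and C2 had 13.2, 12.1, 25.0, 25.8 and 29.9 CPM, against 33.0 to 63.002 CPM in WT males (median 50.6). The groups did not overlap, and the change was −1.29 ± 0.34 (adjusted p = 0.0469). The call stood at the threshold and was lost without any 1 of 14 of the 21 hypothalamic pools, the change then lying between −1.45 and −1.09. In females the mutant pools had 10.3, 38.3, 46.9 and 18.7 CPM, against 14.0 to 39.1 CPM in WT females (median 26.7), and overlapped (0.18 ± 0.37). The change in males minus that in females was −1.47 ± 0.52 (adjusted p = 0.214).

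Other channel genes of the male hypothalamus had negative values that did not pass the adjusted threshold. Of the 20 members tested there, 15 had a negative change, with a median of −0.30 against 0.01 over all genes. The share of all genes with a negative change was not computed. An unadjusted p of 0.05 or less was reached by 8 of the 20, kcnip3a and the higher scn4aa among them, against 15% of all genes. The others included the Kv3.1 gene kcnc1a, with 4.39, 21.2, 8.35, 7.37 and 24.9 CPM in mutant males, against 18.9 to 75.6 CPM in WT males (median 31.9). The pools overlapped, and the change was −1.45 ± 0.46 (adjusted p = 0.118). For the Nav1.6 gene scn8aa the mutant pools had 13.2, 36.3, 25.0, 7.37 and 49.8 CPM, against 23.9 to 132 CPM (median 60.3), a change of −1.41 ± 0.49 (adjusted p = 0.164). For scn4ba they had 30.7, 51.5, 41.7, 33.2 and 9.96 CPM, against 43.1 to 102 CPM (median 73.2), a change of −1.04 ± 0.35 (adjusted p = 0.149). Both pairs of groups overlapped. In mutant females the changes of kcnc1a, scn8aa and scn4ba in the hypothalamus were 0.39, −0.06 and −0.16. The summed level of all members ran from 951 to 1730 CPM in mutant males and from 1466 to 2766 CPM in WT males, and neuronal markers from 9399 to 20006 CPM and from 11482 to 16499 CPM. WT male pool A2 held the highest channel sum of its group (2766 CPM).

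The BK gene kcnma1a, counted well enough to be tested in all regions, had a negative change in every comparison of mutant with WT fish. The OB values were −0.42 in males and −0.36 in females, the Tel values −0.49 and −0.73, and the hypothalamic values −0.21 and −0.45, and none was called. For the most counted Kv4 partner, kcnip1b, mutant females had 297, 336, 283 and 201 CPM in the Tel, against 167 to 220 CPM in WT females (median 200). The groups overlapped by 1 mutant pool, and the change of 0.55 ± 0.23 did not pass the test (adjusted p = 0.268). In the libraries labelled OB, kcnj2a had changes of −0.13 (95% interval −0.78 to 0.52) in females and −0.46 (−0.98 to 0.07) in males. In the genotype-by-sex comparison of the OB 0 of 2 members were called (0.199% of all genes).

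**Figure D5:**
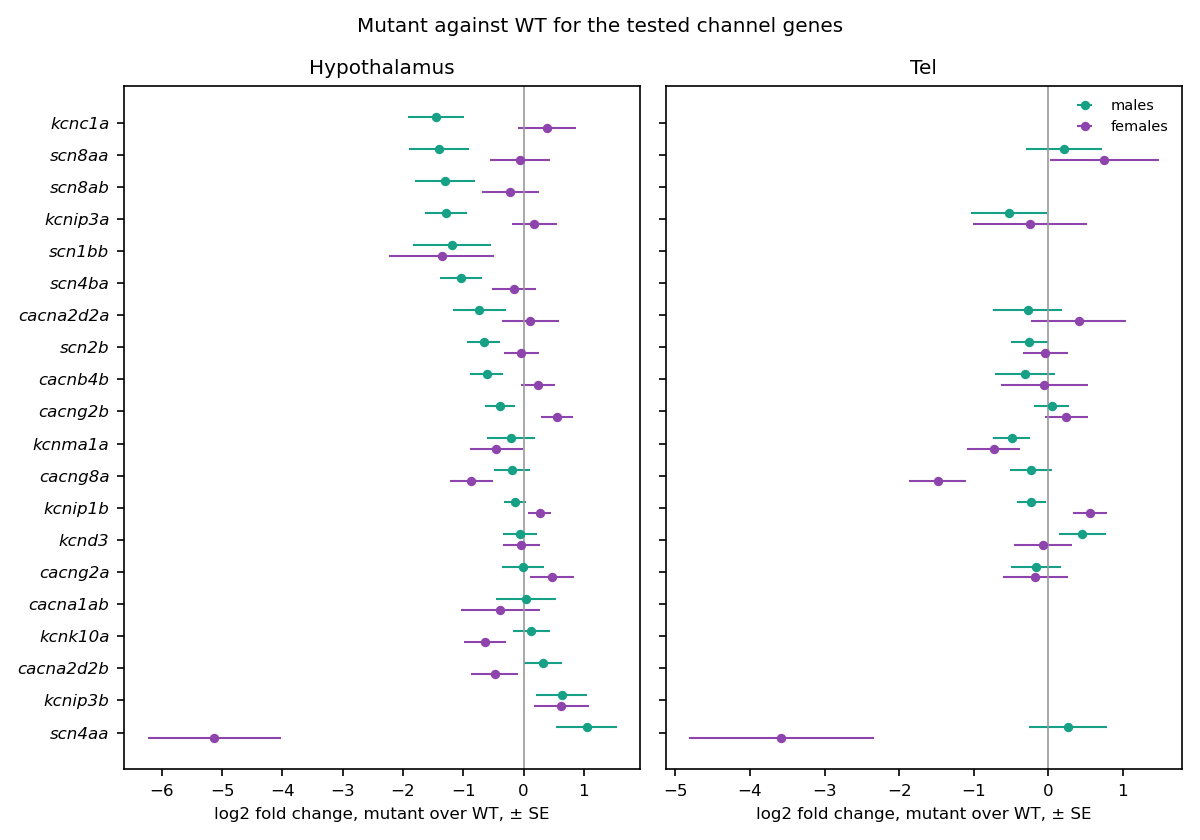
Change of the tested channel genes between mutant and WT fish on the log2 scale, in the hypothalamus (left panel) and the Tel (right panel), with males (green) and females (purple) as separate points and bars of ± 1 SE. The scn4aa point of hypothalamic females lies lowest, at −5.13, and that of males at 1.05.

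Males and females of the same genotype were compared to ask for sex differences in channel expression. In WT fish no member was called by edgeR: 0 of 20 in the hypothalamus (0.0155% of all genes), 0 of 12 in the Tel (0.0451% of all genes), and 0 of 2 in OB libraries (0.0885%). An unadjusted p of 0.05 or less was reached by 3 of 20 members in the hypothalamus (3.73% of all genes), by 1 of 12 in the Tel (1.8%) and by 0 of 2 in OB libraries (3.58%), and DESeq2 called 0. The 3 included kcnip3a, with 33.0 to 63.002 CPM in WT males and 14.0 to 39.1 CPM in WT females of the hypothalamus (0.91 ± 0.25, adjusted p = 0.977), and kcnc1a, with 18.9 to 75.6 CPM in WT males and 10.1 to 36.2 CPM in WT females (1.02 ± 0.34). Both pairs of groups overlapped. The third was scn4aa, with 13.6 to 26.5 CPM in WT males and 16.2 to 83.9 CPM in WT females (−1.20 ± 0.41), also with overlap. In mutants scn4aa in the hypothalamus was the one call. In the Tel 0 of 12 members were called in mutants (1.19% of all genes), where cacng8a differed by 1.42 ± 0.39 between males and females (adjusted p = 0.0741), and in the OB 0 of 2 (2.19%).

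The other genes that serve these channels and the ion gradients were taken from a list of 44 pump and partner genes, 33 of them with at least 100 counts. In the hypothalamus 25 were tested by genotype. The Na,K-ATPase gene atp1a3b, the neuronal alpha3 pump, was higher in mutant than in WT females (0.81 ± 0.22, adjusted p = 0.0312), the only one called in females, where 3.56% of all genes were. Its partner subunit gene atp1b2a was lower in mutant than in WT males (−1.32 ± 0.35, adjusted p = 0.0472), the only one called in males, where 1.93% of all genes were. None was called in the OB or the Tel. Between regions of WT fish, 19 of 29 were lower (29.0% of all genes) and 6 higher (29.8%) in the OB than in the Tel. In the hypothalamus 8 of 29 were higher (9.72%) and 1 lower (5.98%) than in the Tel. The neuronal pump genes atp1a3a and atp1a3b changed by −2.55 and −2.82 between the OB and the Tel, and the Kv4 partner dpp6 by −2.96, whereas the pump genes atp1a1a.3 and atp1b1a changed by 6.65 and 2.33.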

How the data were processed

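Pools of 3 zebrafish were measured per library by a 3′ barcoding method (BRB-seq). The authors aligned the reads to the danRer11 (UCSC) reference transcriptome (the labels name BWA 0.7.4.4), left out reads with several places, and deposited counts of unique molecules per gene for 15418 genes in 63 libraries. The authors' rlog values were not used here. All 63 columns were matched to region, sex, genotype and pool code by their names. Duplicated genes can share 3′ sequence, and whether counting split them was not tested. No genome coordinates were used.

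Counts were compared with edgeR 4.0.16 (R 4.3.3) by quasi-likelihood tests after TMM scaling and filterByExpr, which kept 4520 genes of the OB, 6463 of the hypothalamus and 4437 of the Tel. The 21 libraries of a region entered 1 model. Regions were compared within 36 WT and 27 mutant libraries with the pool as a block. A pool code shared by regions was read as the same fish, from the codes alone. Same-code deviations correlated above 0.1 in 12 of 12 WT hypothalamus and Tel pairs and in 9 of 12 pairs of the OB with either. In mutants 7 of 9 hypothalamus and Tel pairs, 6 of 9 OB and Tel pairs and 7 of 9 OB and hypothalamus pairs did. Same-code WT pools of opposite sex, which share no fish, also did in 4 of 6 pairs of each region. The check therefore cannot decide whether a code means the same fish. Benjamini-Hochberg adjustment ran over all genes tested. Calls needed an adjusted p at or below 0.05 and, except for the interaction, levels 1.5-fold or more apart. Standard errors were taken from the change and its F statistic. CPM used TMM-scaled totals over all 63 libraries. Genes filtered out, with at least 100 counts, were compared by exact permutation of log2(CPM + 1). Intervals of count ratios are exact at 95%.

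Named genes were those called by genotype, sex or interaction, the 2 most counted of each class, and the 6 largest WT region calls in each direction. The members, classes, marker lists and partner list were chosen with earlier results of these data known, and none supports the results independently. The tests were also run on simulated counts with the same spread for every gene and no pool effects. That setting differs from the thinly counted members, and no result here rests on it. The alternatives were DESeq2 1.42.0, limma 3.58.1 on rlog values computed from the counts, other scalings, filters, thinned counts, low-total libraries left out, a replicate block (pool code or pool letter), only the groups compared, and each pool left out.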

Additional observations from a re-analysis of the deposited data

Results flagged for a closer look

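For the members with a call and the summed level of all members, 47 groups of pools were examined for a pool far from the others of its group. In these groups 6 pools stood apart. The limit used gives about 1 in 20 by chance in normally distributed values, and that rate does not hold for sparse counts. A group with 1 pool above 0 and the rest at 0 is always flagged, so the 6 were not compared with a chance rate. In the hypothalamus of mutant females, pool A1 had 10.3 CPM of scn4aa where the other 3 had 0, and in the Tel of mutant females pool C1 had 5.03 CPM where the other 3 had 0. Each of these values is 1 count. In the Tel of mutant females, pool A1 had 0 CPM of cacng8a, against 111 to 133 CPM in the other 3. In the OB, pool A1 of mutant males had 8.62 CPM of cacng8a and pool A2 of mutant females 6.09 CPM of kcnip3a, against 0 in the other pools of their groups. The summed level of the channel genes in the hypothalamus of WT male pool A2 was 2766 CPM, against 1466 to 1936 CPM in the other 5 pools.

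The change of scn4aa between mutant and WT fish in the hypothalamus differed between males and females, by 6.18 on the log2 scale in the test of the interaction by edgeR (adjusted p = 0.00488).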

How the results depend on the processing

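For the 24 named genes, no called log2 change reversed its direction in any alternative run. Counts of called channel genes, summed over the 3 regions, changed as follows. Mutant against WT females gave 2 calls, 4 with no filter on low counts, and 1 with the plain library total, with thinned counts or without the 7 libraries of low total (1 to 3 with a pool left out). Mutant against WT males gave 1, and 0 with the library total, thinned counts, low-total libraries left out, only the 2 groups in the fit, or the pool code as a replicate block (0 to 1 with a pool left out). Between groups, the correlations of same-numbered pools did not all exceed 0.1. Some pairs of the OB with another region, read as the same fish, also fell short of that limit. The check therefore cannot decide whether the codes pair the groups. The replicate block changed no other count of calls by over 1.5 times. Mutant males against mutant females gave 1 call, 2 by DESeq2 or by limma on rlog values, 3 with no filter and 0 with only the 2 groups (0 to 2 with a pool left out). With only the 2 groups, the filter on low counts left scn4aa in the hypothalamus untested. The interaction gave 1 call, and 2 with no filter. WT males against WT females gave 0 in all.

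Between regions, 47 calls in WT fish became 9 with thinned counts (41 to 47 with a pool left out). The 23 calls in mutants became 48 with no filter, 9 with a mean of at least 10 counts and 9 with thinned counts (21 to 28 with a pool left out). Thinning left 4 members testable between regions.

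The scn4aa change in hypothalamic females kept its call in all 10 alternatives (adjusted p of 0.000136 to 0.0126) and without each of 21 pools. The cacng8a change in Tel females lost its call with the library total (adjusted p = 0.0635), thinned counts (0.0754) and low-total libraries left out (0.162), with changes of −1.35 to −1.29. The kcnip3a change in hypothalamic males lost it with those (0.0656, 0.216 and 0.0760), with only the 2 groups (0.0511) and with the replicate block (0.0671), with changes of −1.33 to −1.22. The cause was not tested. Scaling by library total moved the median of all genes between the OB and the hypothalamus to −0.32 in WT fish. Depth limits the mutant females most, since their median totals were the lowest of each region.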
